A study of Homo sapiens with 4 samples.

Results

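Spliced noncoding genes that carry small nucleolar RNAs (snoRNAs) in their introns were followed across the 4 libraries of a drug experiment in KBM5, a human cell line derived from chronic myeloid leukemia in its myeloid blast phase and carrying the BCR-ABL fusion kinase. The rows were those of the deposited expression table whose gene name was GAS5, SNHG1, SNHG5, SNHG6, SNHG8, SNHG12, SNHG15, SNHG16, ZFAS1 or EPB41L4A-AS1, which are 10 of 50868 rows, each found once. The libraries came from cells labelled IM-DSF (both agents), IM, DSF and CTR (control), each group being 1 library, and the labels give neither dose nor duration. The labels do not spell out the codes; IM is read here as imatinib, a BCR-ABL inhibitor, and DSF as disulfiram. The study's title concerns joint targeting of GPX4 and the BCR-ABL kinase, and the design text names the same 4 conditions.

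Messenger RNA libraries were made from total RNA with a stranded kit. The values are FPKM (fragment numbers scaled to the length of the gene and to sequencing depth), so levels of different genes are compared here per length. Depth denominators recovered from single-exon genes lay between 12.4 M (IM-DSF) and 15.8 M fragments (IM), where M is 1000000. All 7 markers fixed for the myeloid line passed the filter, which is on the mean over the 4 libraries. BCR, ABL1 and PTPRC on that list are not specific to myeloid cells. SPI1, a myeloid transcription factor, was at 52.7 FPKM in IM-DSF, 70.05 in IM, 62.4 in DSF and 58.1 in CTR. The granule gene MPO was low, at 2.79, 3.49, 3.23 and 2.49 FPKM in the same order. Some of the markers themselves differed between libraries. In IM-DSF against CTR 5 of the 7 were higher by any amount, where 52.1% of all genes were. Their median over the 7 was 0.12 log2 units. Of these 5, ABL1 was at 34.0 FPKM in both libraries. The 95% counting interval of the MPO ratio, 0.860 to 1.44, included 1. AZU1, a granule protein, was higher by at least 1 log2 unit in both libraries with IM than in CTR. It had 247 FPKM in IM-DSF, 241 in IM, 170 in DSF and 111 in CTR. PTPRC, the leukocyte surface phosphatase, had 27.1, 23.4, 16.7 and 16.7 FPKM in the same order. The part of these shifts in the results below was not tested. All 5 markers of other cells stayed under the filter, and the T cell gene CD3E and the platelet gene PF4 were listed at 0 in every library. With 1 library per group no difference has a replicate check, so no p-value is given. Fewer cells of a type and less RNA per cell cannot be told apart in bulk samples.

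A snoRNA host gene is transcribed and spliced like a messenger RNA, but its useful product is released from its introns. Box C/D snoRNAs guide the methylation of ribose in ribosomal RNA, and box H/ACA snoRNAs guide the conversion of uridine to pseudouridine. Many host transcripts begin with a C followed by a run of pyrimidines, the terminal oligopyrimidine (TOP) start of ribosomal protein mRNAs, which links their output to growth. Several of the spliced transcripts contain only short reading frames, are bound by ribosomes and are then destroyed by nonsense-mediated decay. GAS5 was named for its accumulation in growth-arrested mouse cells, where slower translation spares its RNA from that decay.

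GENCODE 29 places 23 snoRNA genes inside 9 of the 10 genes on the same strand. SNHG1 holds 7 of them, among them SNORD22 and SNORD25, SNHG16 holds SNORD1A, SNORD1B and SNORD1C, and ZFAS1 holds SNORD12, SNORD12B and SNORD12C. SNHG5 (SNORD50B) and SNHG6 (SNORD87) are further box C/D hosts, so that the annotation gives 5 such genes. SNHG8 (SNORA24), SNHG15 (SNORA9) and EPB41L4A-AS1 (SNORA13) are the 3 box H/ACA hosts, and SNHG12 holds both kinds. GAS5 is known as a host of box C/D snoRNAs. The table has 29 rows named SNORA, SNORD or SCARNA, the shortest 201 bases long, and 0 of them lie inside the 10 genes. The values below therefore describe the host transcripts and say nothing of the level of the snoRNAs.

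The starts of the host genes are shown because the TOP start and the core promoter are what many of these genes share in sequence. RefSeq promoter sequences of GRCh38.p14 matched 8 of the 10 genes; SNHG6 and SNHG15 had no match. Each line gives 60 bases in the direction of transcription, 40 before the RefSeq start and 20 from it. Capitals mark the run of C and T that covers the first transcribed base, where that base is C or T, and the motif TATAAG where it lies 40 to 20 bases before the start.
SNHG1: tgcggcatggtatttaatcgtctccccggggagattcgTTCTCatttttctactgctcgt
SNHG5: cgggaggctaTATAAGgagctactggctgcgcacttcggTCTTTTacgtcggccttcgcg
ZFAS1: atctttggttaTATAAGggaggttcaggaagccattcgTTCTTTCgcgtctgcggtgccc
SNHG12: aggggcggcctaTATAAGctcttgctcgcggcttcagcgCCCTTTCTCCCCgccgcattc
SNHG8: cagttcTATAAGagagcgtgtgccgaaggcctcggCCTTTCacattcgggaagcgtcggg
GAS5: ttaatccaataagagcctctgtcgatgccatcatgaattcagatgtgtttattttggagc
SNHG16: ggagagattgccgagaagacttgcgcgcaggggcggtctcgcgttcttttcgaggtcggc
EPB41L4A-AS1: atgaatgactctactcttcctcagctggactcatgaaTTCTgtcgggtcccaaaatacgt

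The windows lie at chr11:62855866-62855925 (minus strand) for SNHG1, chr6:85678714-85678773 (minus strand) for SNHG5, chr20:49278602-49278661 (plus strand) for ZFAS1, chr1:28581854-28581913 (minus strand) for SNHG12. The others lie at chr4:118278722-118278781 (plus strand) for SNHG8, chr1:173869026-173869085 (minus strand) for GAS5, chr17:76557724-76557783 (plus strand) for SNHG16, chr5:112160486-112160545 (plus strand) for EPB41L4A-AS1. In 5 of the 8 genes (SNHG1, SNHG5, SNHG8, SNHG12 and ZFAS1) the first base was a C within a run of at least 5 C or T. This holds for 7.32% of all 35116 RefSeq promoters of the same length. The run may include bases before the start, so it need not be a TOP start. Only in SNHG5, SNHG12 and ZFAS1 was that C followed by 4 further pyrimidines, and in SNHG8 it was the last base of the run. The run was 12 bases long in SNHG12 and 7 in ZFAS1. TATAAG was present on the sense strand at that distance in 4 of the 8, 34 bases before the start in SNHG8 and 28 to 30 bases before it in SNHG5, SNHG12 and ZFAS1, against 0.928% of all promoters; this motif was chosen after these sequences were seen. The MYC-type E-box CACGTG, which reads the same on both strands, was in 0 of the 8 windows of 300 bases and in 7.26% of all promoters. The RefSeq start can differ from the start in the deposited table: it lay 163 bases from it in GAS5, 464 in ZFAS1 and 1110 in SNHG12, but at most 53 in the other matched genes. Annotated transcript starts gave a related picture without RefSeq. Of 136 GENCODE 29 transcripts of the 10 genes, 16.9% began with C and 4 further pyrimidines, against 2.41% of all 206694 transcripts. That count includes 6 of 29 GAS5 transcripts and 3 of 5 SNHG6 transcripts, and 0 of 10 SNHG15 transcripts. A matching sequence is a description of the letters, not evidence of a working element.

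The 10 genes spanned a wide range of levels, with SNHG6 the highest and SNHG12 and SNHG16 the lowest in each library. SNHG6 (GRCh38.p14 chromosome 8, 66921684 to 66926398), a box C/D host, was the most abundant, with 109 FPKM in IM-DSF, 112 in IM, 98.6 in DSF and 84.7 in CTR. Its mean ranked 2 among 14260 long noncoding genes, and ZFAS1 ranked 7 and SNHG8 ranked 10. SNHG12 (mean 2.62 FPKM) and SNHG16 (2.31 FPKM) were the least abundant and lay below the middle of the 11004 genes that averaged at least 1 FPKM. All 10 genes passed that filter. Together they held 281 FPKM in IM-DSF, 261 in IM, 236 in DSF and 213 in CTR, or 0.101%, 0.0907%, 0.0826% and 0.0764% of all FPKM in the same libraries. SNHG6 alone makes up a large part of these sums.

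**Figure D1:**
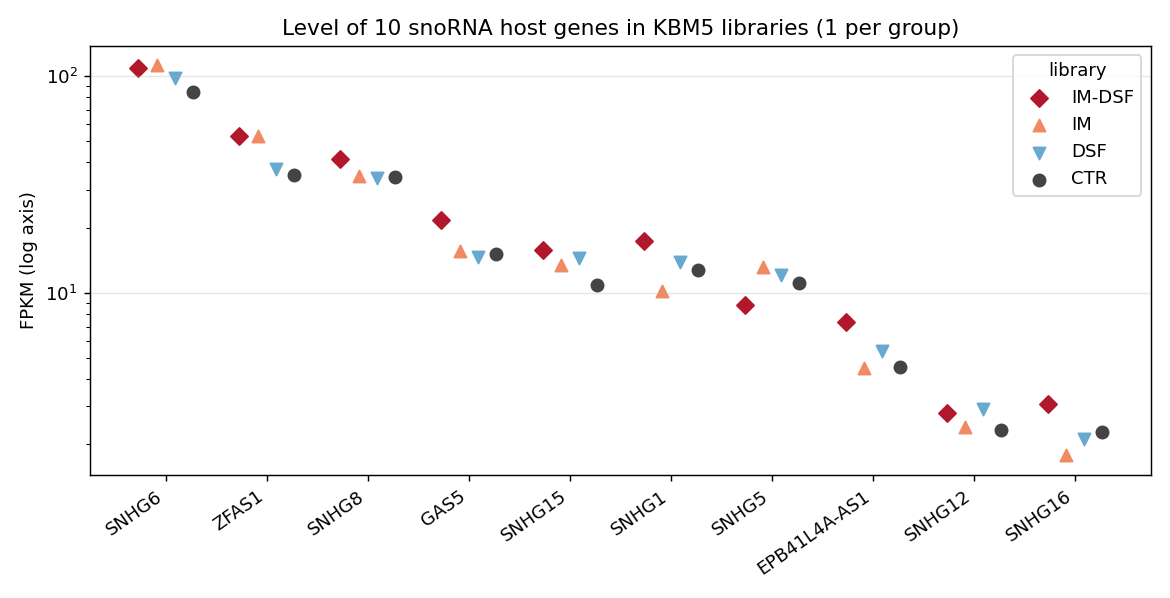
FPKM (log axis) of the 10 host genes, ordered by mean level, with 1 point per library and groups from left to right IM-DSF, IM, DSF and CTR. The IM-DSF point lies above the CTR point in 9 genes, and SNHG5 is the exception at 8.84 against 11.1 FPKM.

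None of the 10 genes differed by the size rule of 1 log2 unit on the log2(FPKM + 1) scale, in either direction, in any of the 5 contrasts. Over all 11004 genes that rule called 2.54% higher and 1.74% lower in IM-DSF against CTR, 1.54% and 0.891% in IM against CTR, 0.545% and 0.573% in DSF against CTR, 0.7% and 1.04% in IM-DSF against IM, and 1.33% and 1.05% in IM-DSF against DSF. Against these shares, 0 of 10 is near the background. At a smaller step of 0.5 log2 units, chosen after seeing the data, 2 of the 10 were past it in IM-DSF against CTR (22.7% of all genes), 1 in IM against CTR (15.0%), 0 in DSF against CTR (6.3%), 4 in IM-DSF against IM (7.84%) and 1 in IM-DSF against DSF (14.6%). The highest library exceeded the lowest by 1.22-fold in SNHG8 to 1.72-fold in SNHG16. The differences below are therefore moderate, and each fold is a ratio of FPKM with a 95% interval that covers counting error only. The fragment numbers behind the intervals are approximate and rest on the merged exon length of GENCODE 29. With the shorter median transcript length, 22 of the 50 folds had an interval without 1, against 32 with the merged length. For a called fold named below, the changed interval is stated where it then includes 1.

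Most of the 10 host genes were higher in IM-DSF than in CTR, whereas 9 of the 14 other noncoding hosts described below were lower. In IM-DSF against CTR, 9 of the 10 were higher by any amount, where 52.1% of all genes were, and the median difference was 0.39 log2 units beside 0.02 over all genes. The interval lay above 1 in 8 of the 10 and below 1 in 1, shares that were 31.5% and 29.2% among the 10962 genes with an exon length. With the shorter length these counts were 7 and 0. Deeper genes have narrower intervals, and 7 of the 10 host genes had a mean level above that of 73.8% (SNHG5) to 97.9% (SNHG6) of all genes tested, so these shares do not compare genes of matched depth.

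Among box C/D hosts, ZFAS1 (chromosome 20, 49278178 to 49295738), an antisense RNA from the start of ZNFX1, had 53.1 FPKM in IM-DSF, 53.0 in IM, 37.3 in DSF and 34.9 in CTR. Both libraries with IM stood above both without it. The fold was 1.52 in IM-DSF over CTR (1.41 to 1.65), 1.52 in IM over CTR (1.41 to 1.64) and 1.42 in IM-DSF over DSF (1.32 to 1.54). The interval of IM-DSF over IM, 0.935 to 1.07, included 1. ZNFX1, the RNA helicase gene on the opposite strand whose start is 248 bases away, had 5.32, 5.43, 6.86 and 6.12 FPKM in IM-DSF, IM, DSF and CTR, and so was not higher with IM.

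SNHG6 was also higher in both libraries with IM than in both without it, but IM-DSF was only 1.11 times DSF (1.04 to 1.18). It was 1.29-fold higher in IM-DSF than in CTR (1.20 to 1.38), 1.32-fold higher in IM than in CTR (1.24 to 1.41) and 1.16-fold higher in DSF than in CTR (1.09 to 1.25). IM-DSF was at 0.974 times IM (0.914 to 1.04), an interval that includes 1.

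GAS5 (chromosome 1, 173863900 to 173868882), whose RNA is also known to bind the glucocorticoid receptor, had 21.7 FPKM in IM-DSF, 15.7 in IM, 14.6 in DSF and 15.1 in CTR. The library with both agents was the highest, and the other 3 lay between 14.6 and 15.7. The fold was 1.43 in IM-DSF over CTR (1.30 to 1.57), 1.38 over IM (1.26 to 1.51) and 1.48 over DSF (1.35 to 1.63), while IM over CTR was 1.03 (0.941 to 1.14) and DSF over CTR 0.965 (0.874 to 1.07). ZBTB37, a zinc finger gene on the opposite strand, overlaps GAS5 by 801 bases and had 4.44 FPKM in IM-DSF, 3.46 in IM, 2.92 in DSF and 2.26 in CTR. Whether the counting used strand is not given in the sources used here, and the part of the overlap in the GAS5 values was not tested.

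SNHG1 (chromosome 11, 62851988 to 62855914), the host of 7 annotated snoRNAs, had 17.4 FPKM in IM-DSF, 10.2 in IM, 13.9 in DSF and 12.8 in CTR. It was lowest with IM alone and highest with both agents. The fold of IM-DSF was 1.70 over IM (1.53 to 1.89) and 1.36 over CTR (1.23 to 1.51). IM was 0.801 times CTR (0.717 to 0.895), which with the shorter length includes 1 (0.621 to 1.03). SLC3A2, the heavy chain of amino acid transporters, starts 188 bases away on the opposite strand and ran another way, with 6.95 FPKM in IM-DSF, 7.87 in IM, 8.91 in DSF and 10.9 in CTR.

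SNHG16 (chromosome 17, 76557766 to 76565348) was likewise lowest with IM alone and highest with both agents, at a low level, with 3.07 FPKM in IM-DSF, 1.78 in IM, 2.13 in DSF and 2.28 in CTR. Over IM the fold of IM-DSF was 1.72 (1.39 to 2.14), and over CTR it was 1.34 (1.10 to 1.66). IM was 0.782 times CTR (0.626 to 0.978). The last 2 intervals include 1 with the shorter length, at 0.889 to 2.02 and 0.499 to 1.22. This gene rested on approximately 205, 151, 168 and 177 fragments in IM-DSF, IM, DSF and CTR.

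SNHG5 (chromosome 6, 85660950 to 85678736) was the exception among the box C/D hosts. It had 8.84 FPKM in IM-DSF, 13.2 in IM, 12.1 in DSF and 11.1 in CTR, so the library with both agents was the lowest and both single-agent libraries were above CTR. IM-DSF was 0.668 times IM (0.581 to 0.769), 0.729 times DSF (0.632 to 0.843) and 0.793 times CTR (0.686 to 0.921), the last including 1 with the shorter length (0.581 to 1.07). IM over CTR was 1.19 (1.05 to 1.35), also including 1 with the shorter length (0.918 to 1.54).

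All 3 box H/ACA hosts were higher in IM-DSF than in each of the other libraries. So were GAS5, SNHG1, SNHG16 and, by a narrow margin over IM, ZFAS1. EPB41L4A-AS1 (chromosome 5, 112160526 to 112164276), transcribed against the cytoskeletal protein gene EPB41L4A, had 7.31 FPKM in IM-DSF, 4.49 in IM, 5.38 in DSF and 4.54 in CTR. Its fold of 1.61 over CTR (1.35 to 1.92) was the largest of the 10, and it was 1.63 times IM (1.37 to 1.94) and 1.36 times DSF (1.15 to 1.60; 0.983 to 1.86 with the shorter length). EPB41L4A itself, which covers the whole of it on the opposite strand, had at most 0.0310 FPKM in any library.

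SNHG15 (chromosome 7, 44983023 to 44986961) had 15.7 FPKM in IM-DSF, 13.5 in IM, 14.5 in DSF and 10.8 in CTR, and was the gene with the highest fold in DSF over CTR. All 3 treated libraries were above CTR, by 1.45-fold in IM-DSF (1.30 to 1.62), 1.24-fold in IM (1.11 to 1.38) and 1.34-fold in DSF (1.20 to 1.49). The IM interval includes 1 with the shorter length (0.988 to 1.57). IM-DSF was 1.08 times DSF (0.976 to 1.20), an interval that includes 1. It was 1.17 times IM (1.05 to 1.29), which includes 1 with the shorter length (0.942 to 1.46).

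SNHG8 (chromosome 4, 118278709 to 118279823) had 41.5 FPKM in IM-DSF, 34.5 in IM, 34.0 in DSF and 34.3 in CTR. The 3 libraries other than IM-DSF lay within 1 FPKM of each other. The IM-DSF fold was 1.21 over CTR (1.06 to 1.38) and 1.21 over IM (1.06 to 1.37), while IM was 1.01 times (0.884 to 1.14) and DSF 0.993 times CTR (0.871 to 1.13). SNHG12 (chromosome 1, 28578538 to 28582983), the host of both kinds, had 2.78 FPKM in IM-DSF, 2.42 in IM, 2.92 in DSF and 2.34 in CTR, and its interval included 1 in all 5 contrasts.

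**Figure D2:**
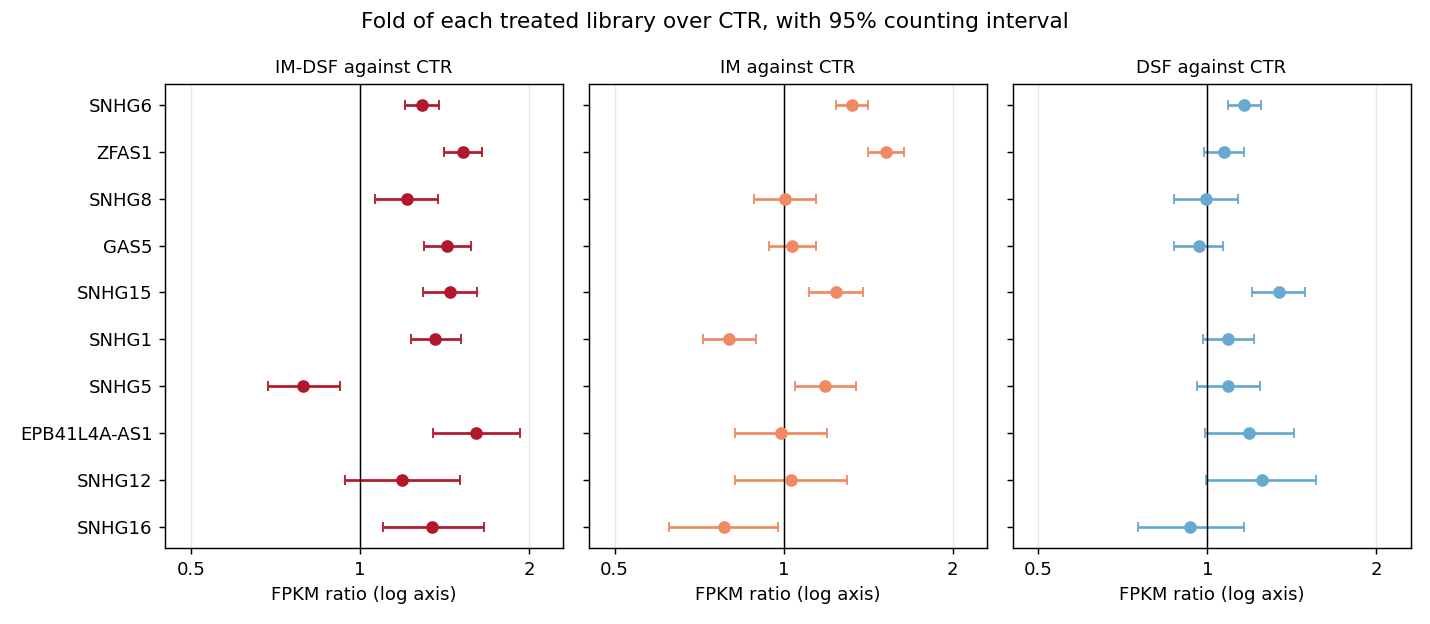
FPKM ratio (log axis) of IM-DSF, IM and DSF over CTR for the 10 host genes; bars are 95% counting intervals with the merged exon length. In IM-DSF 8 intervals lie above 1 and that of SNHG5 lies below; the 3 panels share the CTR library.

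With either agent alone the median difference from CTR was smaller than with both. In IM against CTR 7 of the 10 were higher by any amount (53.1% of all genes), with a median of 0.04 (-0.02 when scaled without mitochondrially encoded genes) beside 0.02 over all genes, and the interval lay above 1 in 4 and below 1 in 2 (30.3% and 26.6% of all genes). With the shorter median transcript length the interval lay above 1 in 2 and below 1 in 0. ZFAS1 and SNHG6 led, and SNHG1 and SNHG16 were the lower pair. In DSF against CTR 7 of the 10 were higher (50.0% of all genes), the median was 0.11 beside 0.00, and the interval lay above 1 in 2, SNHG15 and SNHG6, and below 1 in 0 (18.4% and 19.0% of all genes). These contrasts and IM-DSF against CTR share the CTR library.

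The contrasts of IM-DSF with each single agent set both agents beside each agent alone, and most of the 10 genes were higher in both. In IM-DSF against IM 8 of the 10 were higher (49.7% of all genes), with a median of 0.24 beside 0.00 and intervals above 1 in 6 and below 1 in 1 (18.5% and 18.9%), or 5 and 1 with the shorter length. SNHG1 had the largest difference there, 0.71 log2 units, and 1.42% of all genes had one as high. EPB41L4A-AS1 followed with 0.60 (2.16% of all genes as high) and SNHG16 with 0.55 (2.73%). In IM-DSF against DSF 8 of the 10 were higher (51.7% of all genes), with a median of 0.29 beside 0.01 and intervals above 1 in 7 and below 1 in 1 (27.8% and 26.2%), or 4 and 1 with the shorter length. GAS5 led there with 0.54 log2 units (6.52% of all genes as high) and ZFAS1 followed with 0.50 (7.73%). These contrasts share the IM-DSF library.

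**Figure D3:**
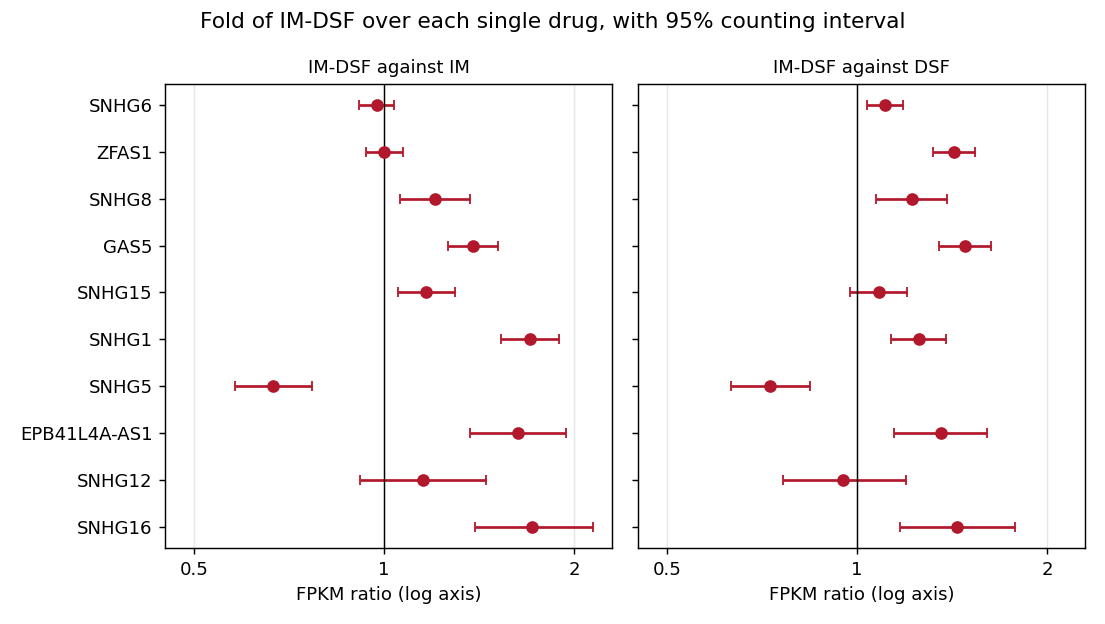
FPKM ratio (log axis) of IM-DSF over IM and over DSF for the 10 host genes, with 95% counting intervals. SNHG1, SNHG16 and EPB41L4A-AS1 lie farthest right over IM, ZFAS1 and SNHG6 sit near 1 there, and SNHG5 lies below 1 in both panels.

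The combination was set beside the sum of the single-agent differences on the log2(FPKM + 1) scale. The departure from that sum was positive in 5 genes and negative in 5, near the 48.4% of all genes with a positive one. Its median was 0.09 beside -0.01 over all genes. The median of the 10 was 0.17 after scaling to TPM and 0.18 after scaling without mitochondrially encoded genes. SNHG16 (0.62), SNHG1 (0.60), GAS5 (0.49), EPB41L4A-AS1 (0.40) and SNHG8 (0.27) stood above the sum, and SNHG5 (-0.64) stood farthest below it. Departures as high as that of SNHG16 were found in 3.83% of all genes, and as low as that of SNHG5 in 4.66%. ZFAS1 (-0.09) and SNHG12 (-0.09) were close to the sum, and SNHG15 (-0.18) and SNHG6 (-0.25) were below it.

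**Figure D4:**
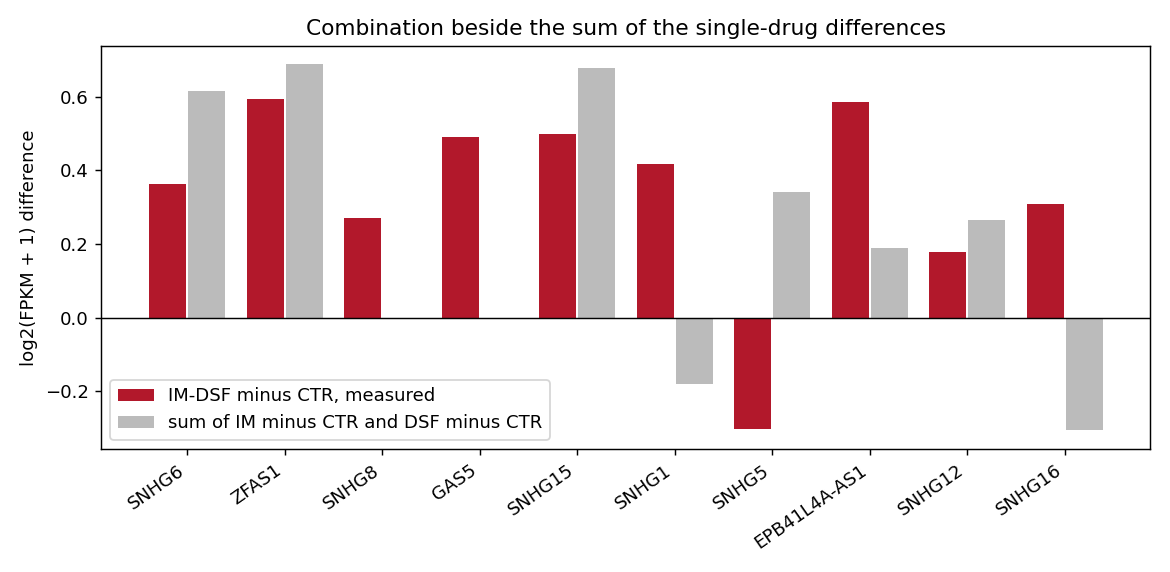
Difference of IM-DSF from CTR (red bars) beside the sum of the IM and DSF differences from CTR (grey bars), in log2(FPKM + 1), for the 10 host genes. GAS5 and SNHG8 have a sum near 0 and a positive red bar, while SNHG1, SNHG5 and SNHG16 have bars of opposite sign.

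The other noncoding hosts were more often lower than higher in the combination. They are the 22 further rows named SNHG together with DANCR, of which 14 passed the filter. In IM-DSF against CTR 5 of these 14 were higher and 9 lower, with a median of -0.42 beside 0.02 over all genes, and 1 passed the size rule, where 47.9% of all genes were lower and 1.74% were lower by the rule. That gene, SNHG19, had 9.63 FPKM in IM-DSF, 7.77 in IM, 20.3 in DSF and 20.8 in CTR, and was lower by the rule with IM in both settings, at 0.374 times CTR in IM (0.255 to 0.541) and 0.475 times DSF in IM-DSF (0.322 to 0.689). SNHG4 had 3.79, 5.08, 7.10 and 6.70 FPKM and SNHG9 had 0.754, 1.02, 1.46 and 1.85 FPKM in IM-DSF, IM, DSF and CTR. SNHG32 (58.6, 55.9, 41.5 and 36.9 FPKM) and SNHG29 (31.97, 33.3, 24.7 and 22.4 FPKM) were, like ZFAS1, higher in both libraries with IM than in both without it, in the same library order. Among rows of long snoRNAs, SNORA73B inside SNHG3 was at 10.2, 9.92, 18.3 and 10.8 FPKM and SNORA71B inside SNHG17 at 4.16, 4.52, 2.68 and 4.58 FPKM in the same order. These rows are only 204 and 272 bases long and rest on few fragments, and no interval is given for them. The part of host transcripts in these values was not tested.

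Ribosomal protein genes that host snoRNAs, which carry TOP starts, were higher in 19 of 20 cases in IM-DSF against CTR (median 0.24), in 20 of 20 in IM (0.29) and in 14 of 20 in DSF (0.09), with 0 past the size rule; 52.1%, 53.1% and 50.0% of all genes were higher in the same contrasts. RPL13A, a host of several box C/D snoRNAs, had 133 FPKM in IM-DSF, 133 in IM, 109 in DSF and 90.7 in CTR. Pseudogene copies make such values uncertain. Protein-coding hosts outside the ribosome split evenly, with 7 of 14 higher in IM-DSF against CTR (median -0.04). NOP56 and DKC1 in this list, both lower, are also counted among the snoRNA particle proteins below. TPT1, a growth-linked TOP gene, had 42.3 FPKM in IM-DSF, 40.1 in IM, 28.8 in DSF and 26.5 in CTR, whereas HSPA8, a constitutive chaperone, had 61.8, 79.4, 114 and 134 FPKM in the same order and was lower by the size rule in IM-DSF against CTR. PPAN, a ribosome assembly factor, had 8.82 FPKM in IM-DSF, 7.75 in IM, 15.6 in DSF and 16.3 in CTR.

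The proteins that bind snoRNAs were mostly lower in the combination. Of 15 core and assembly factors of snoRNA particles, 14 were lower in IM-DSF than in CTR (47.9% of all genes were), with a median of -0.39, and 1 passed the size rule. That gene, SNU13, which binds the kink-turn of box C/D snoRNAs, had 4.20 FPKM in IM-DSF, 7.85 in IM, 13.6 in DSF and 13.9 in CTR, and was at 0.301 times CTR in IM-DSF (0.250 to 0.360). RUVBL1 and RUVBL2, helicases of particle assembly, had 8.40 and 21.9 FPKM in IM-DSF, 10.1 and 23.1 in IM, 11.7 and 32.03 in DSF, and 13.7 and 32.1 in CTR. GAR1, a box H/ACA core protein, had 25.1 FPKM in IM-DSF, 36.8 in IM, 40.4 in DSF and 50.2 in CTR. FBL, the methyltransferase fibrillarin, had 69.8, 57.3, 65.8 and 86.6 FPKM in the same order, and NOP10, another H/ACA core protein, was the exception at 78.4, 101, 115 and 78.4 FPKM. In IM against CTR 14 of the 15 were lower (median -0.39), and in DSF against CTR 13 were (-0.13), each with 0 past the size rule. Among all genes, 53.1% and 50.0% were higher by any amount in these contrasts, and the medians were 0.02 and 0.00.

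**Figure D5:**
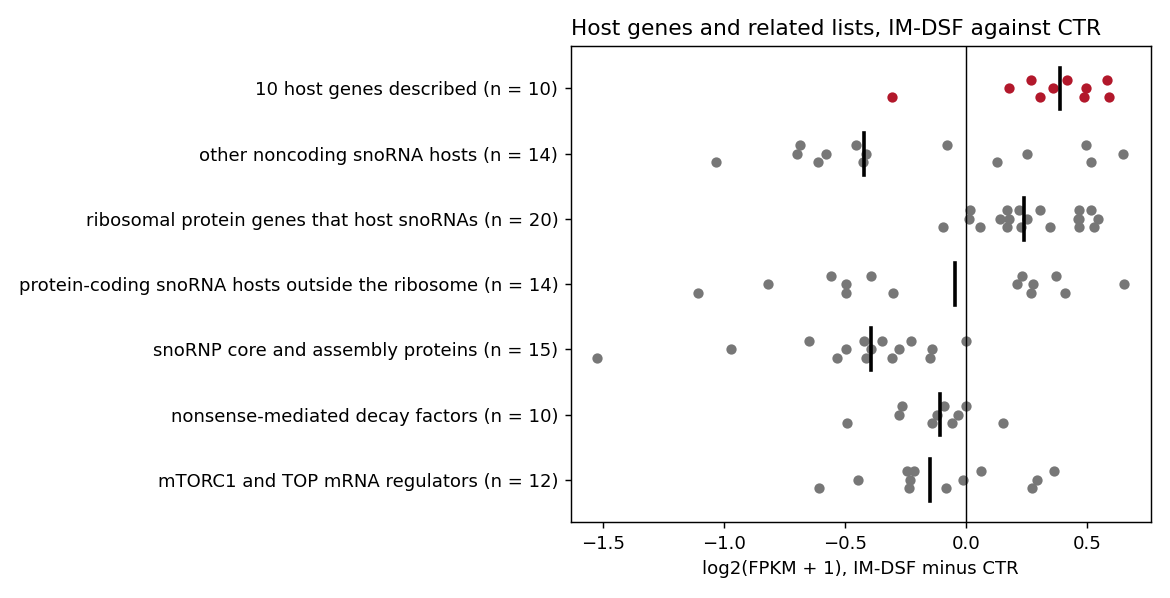
Difference of IM-DSF from CTR in log2(FPKM + 1) for each gene of the 10 host genes (red) and of 6 related lists (grey), with n past the filter; black bars are medians. The 10 host genes lie mostly right of 0 (median 0.39). The other noncoding hosts (9 of 14 lower, median -0.42) and the snoRNA particle proteins (median -0.39) lie mostly left of it. NOP56 and DKC1 are drawn both as protein-coding hosts and as particle proteins.

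Most genes listed as nonsense-mediated decay factors and as mTORC1 or TOP mRNA regulators were slightly lower in the combination. Of 10 nonsense-mediated decay factors, 8 were lower in IM-DSF than in CTR with a median of -0.11 and 0 past the size rule, where 47.9% of all genes were lower. UPF1, the central helicase of the pathway, had 21.2 FPKM in IM-DSF, 21.7 in IM, 22.6 in DSF and 22.7 in CTR. SMG5, a partner of the decay enzymes, had the largest difference, with 34.99, 37.1, 44.5 and 49.6 FPKM in the same order. SMG8, a subunit of the kinase complex that phosphorylates UPF1, passed the rule in IM against CTR and in IM-DSF against IM, with 4.14, 1.06, 3.83 and 4.59 FPKM in the same order. Of 12 mTORC1 and TOP mRNA regulators, 8 were lower in IM-DSF against CTR, against the same 47.9% of all genes, with a median of -0.15 and 0 past the rule. LARP1, the protein that binds TOP starts, had 30.2 FPKM in IM-DSF, 31.4 in IM, 37.97 in DSF and 41.5 in CTR. EIF4EBP1, a translation repressor, had 115, 146, 186 and 176 FPKM in the same order. The other 4 of the 12 were higher, among them TSC1 and EIF4EBP2, at 13.9 and 27.6 FPKM in IM-DSF and 10.5 and 22.3 in CTR. The list mixes activators and repressors, so its count gives no direction for the pathway.

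By the largest gap over the 3 differences from CTR, the genes nearest to the median profile of the 10 (0.39 in IM-DSF, 0.04 in IM and 0.11 in DSF) were EIF3H, RPL41, MT-CO1, SF3B1 and ATP6V0E1, with gaps of 0.06 to 0.11 log2 units among 1301 genes of at least 20 FPKM. EIF3H, a translation initiation subunit, had 52.1 FPKM in IM-DSF, 40.1 in IM, 40.7 in DSF and 39.1 in CTR. The measure rests on 4 libraries that share 1 control.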

How the data were processed

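The authors deposited 1 table of FPKM values with a column per library for 50868 genes, per the file headers. The submitters' processing notes name HISAT2 2.0.4 and GRCh38.p14; the sources used here give neither the counter, the gene lengths nor the use of strand. All gene coordinates were taken from the table. GENCODE 29, matched by identifier for 50111 rows, gave strand, gene type and exon length.

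Differences are of log2(FPKM + 1), which understates changes of low genes, and genes averaging under 1 FPKM over the libraries were left out. The size rule is 1 log2 unit. Depth denominators come from single-exon genes, where FPKM times length was a whole multiple of 1 step, within 0.05, for 95.4% (CTR) to 95.8% (IM) of genes. Approximate fragment numbers give exact conditional binomial 95% intervals of FPKM ratios. Their computation was checked on counts simulated with counting error only and with the same lengths and depths. That check could not test the lengths or the spread between replicates, and PCR copies make the intervals too narrow. Intervals with the median transcript length were added after seeing the data. Near-identical copies were not marked. The 10 genes, the lists and the rules were chosen with earlier results of these data known. All 10 are described, with neighbouring genes, up to 4 genes per list by the largest difference in the contrast described, and the 5 nearest profiles. SNHG29, UPF1, FBL, NOP10, SPI1, AZU1, PTPRC, MPO, BCR, ABL1, NOP56, DKC1 and the SNORA rows were named in addition, after their values were seen. Other pseudocounts, filters and scalings were tried. Python 3.11.15, scipy 1.17.1 and pandas 2.3.3 were used.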

Additional observations from a re-analysis of the deposited data

Results flagged for a closer look

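In 3 of the 10 genes the difference with IM had opposite signs without and with DSF, by counting intervals that exclude 1. These contrasts share no library, and the difference was not tested. The share of all genes that did so was not computed, so whether 3 of 10 is above the background is not known. Over all genes the interval lay above and below 1 in 30.3% and 26.6% in IM against CTR. In IM-DSF against DSF these shares were 27.8% and 26.2%. SNHG1 was at 0.801 times CTR in IM and at 1.25 times DSF in IM-DSF. SNHG16 was at 0.782 times CTR in IM and at 1.44 times DSF in IM-DSF. SNHG5 went the other way, at 1.19 times CTR in IM and 0.729 times DSF in IM-DSF. With the median transcript length, 5 of these 6 intervals include 1, the exception being SNHG5 in IM-DSF against DSF (0.538 to 0.982).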

How the results depend on the processing

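No paired analysis was possible because each group has 1 library. No replicate could be left out for the same reason. Host genes past the size rule numbered 0 in all 5 contrasts under each of 7 other settings: no filter, a stricter filter of 5 FPKM on the mean (which leaves out SNHG12 and SNHG16), a pseudocount of 0.1, TPM, factors from medians of ratios or trimmed means, and scaling to FPKM outside mitochondrially encoded genes. A size rule of 0.5 log2 units, chosen after seeing the data, gave 1 gene in IM against CTR, 2 in IM-DSF against CTR, 4 in IM-DSF against IM and 1 in IM-DSF against DSF, and 0 in DSF against CTR. All 340 single-gene values stayed within their counting intervals, and 0 called values reversed. Of these, the 50 without a filter and the 40 with the stricter filter could not differ, because a filter leaves each gene's value unchanged. For the same reason neither filter could raise the number of host genes past the size rule, so only the remaining settings test these results. The median in IM-DSF against CTR ranged from 0.36 to 0.45, in IM-DSF against DSF from 0.27 to 0.34 and in IM-DSF against IM from 0.24 to 0.32. In IM against CTR it ranged from -0.02 (without mitochondrial genes) to 0.14, so its sign is not settled. The median departure from additivity ranged from 0.09 to 0.18. Depth limits SNHG12 and SNHG16 most.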
